A study of Mus musculus with 7 samples.

Results

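The genes described here encode the machinery that carries newly made protein and lipid from the endoplasmic reticulum (ER) to the Golgi and sorts it there. They were chosen by gene name, from families of coat, tether, cargo receptor, golgin and syntaxin genes, together with the condition that at least 1 site was listed for them in a HuR immunoprecipitation. The result was 73 genes of the 6277 genes with a site in all, and 260 of the 18072 listed sites. A RefSeq table of mouse genes holds 112 protein-coding genes whose names fit the same pattern, so 39 had no listed site. One of these, Sec1, is a fucosyltransferase gene that fits by name alone. Having a site was part of the choice, so the share of 65.2% is not a result, and neither are such shares of the groups below. The share was 28.4% over all 21900 protein-coding genes of the table, whether or not these cells express them.

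The data are RNA immunoprecipitation sequencing (RIP-seq) from CT26.WT cells, a line derived from a mouse colon carcinoma. Its genotype is labelled WT in every group, and no treatment other than the immunoprecipitation is named. In RIP-seq an antibody pulls a protein from a cell extract together with its RNA. HuR, the product of Elavl1, was pulled down in 3 samples, IgG served as control antibody in 3, and 1 sample was the input. Separate cultures are not stated for these samples, and all come from a single cell line. Only the sites called in each HuR immunoprecipitation were analysed here (lists 1, 2 and 3). Each site has a fold enrichment over a control that the sources used here do not name. Fold, score and false discovery rate (FDR) are the authors' values for a site in 1 library, with no replicate error, and read depth is unknown. A gene without a listed site is not shown to be unbound, and a site count is not an expression level. Of 5 genes that mark epithelial or mesenchymal cells, Epcam, Krt8, Cdh1 and Vim had no listed site and Krt18 had a site in 1 list, which gives no check of the cell type.

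Cargo leaves the ER in vesicles built by the COPII coat and returns from the Golgi in vesicles built by the COPI coat. Tethering complexes and long golgin proteins catch the vesicles, and SNARE proteins such as the syntaxins fuse them with the target membrane. In the small intestine the same route exports chylomicrons, the large fat-carrying particles. HuR is known as a protein that binds U-rich stretches of RNA and can stabilise the mRNAs that carry them. The study as a whole concerned HuR in triglyceride synthesis and intestinal fat absorption.

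The annotations in the files placed most members at the Golgi or the ER, but named ER to Golgi transport for a minority. A cell compartment term naming the Golgi or the ER was attached to 63 of the 73 members (86.3%), against 16.6% of the 5797 annotated genes with a site. ER to Golgi vesicle transport was a listed process for 16 of 71 members with process terms (22.5%), against 0.728% of 5222 genes. Because the members were picked by name, these shares check the naming only. Family names also brought in 14 genes whose known work mostly lies elsewhere. They are 10 syntaxins, most of which act at the cell surface or on endosomes, Sec61a2 and Sec63 of the ER entry channel, the signal peptidase subunit Sec11a, and the lipid transfer-like Sec14l1. The other 59 belong to the coats, Arf regulators, cargo receptors, large cargo exit genes, tethers, golgins and ER SNAREs.

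Members reached all 3 lists about as often as all genes with a site, and at least 2 lists somewhat more often, and neither difference was tested. List 1 held sites in 38 members, list 2 in 46 and list 3 in 52, which is 52.1%, 63% and 71.2% of the 73. Among all genes with a site, the same lists held 54.5%, 57.8% and 62.8%. A site in at least 2 lists was found for 48 members (65.8%), against 55.2% of all genes with a site. Exactly 2 lists held 33 members (45.2%, against 35.3%), and exactly 1 held 25 (34.2%, against 44.8%). A site in all 3 lists was found for 15 members (20.5%), against 19.9% of all genes, so the members stood close to the background by this count. The 15 were Arfgap3, Arfgef1, Arfip1, Cope and Copg2 of the COPI and Arf group, Sec23a and Sec24a of COPII, Cog2 and Cog4 of the COG complex, Trappc3 and Trappc13 of the TRAPP complexes, the golgin genes Golga3 and Golgb1, the cargo receptor gene Tmed2, and Sec14l1. No syntaxin was among them.

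**Figure D1:**
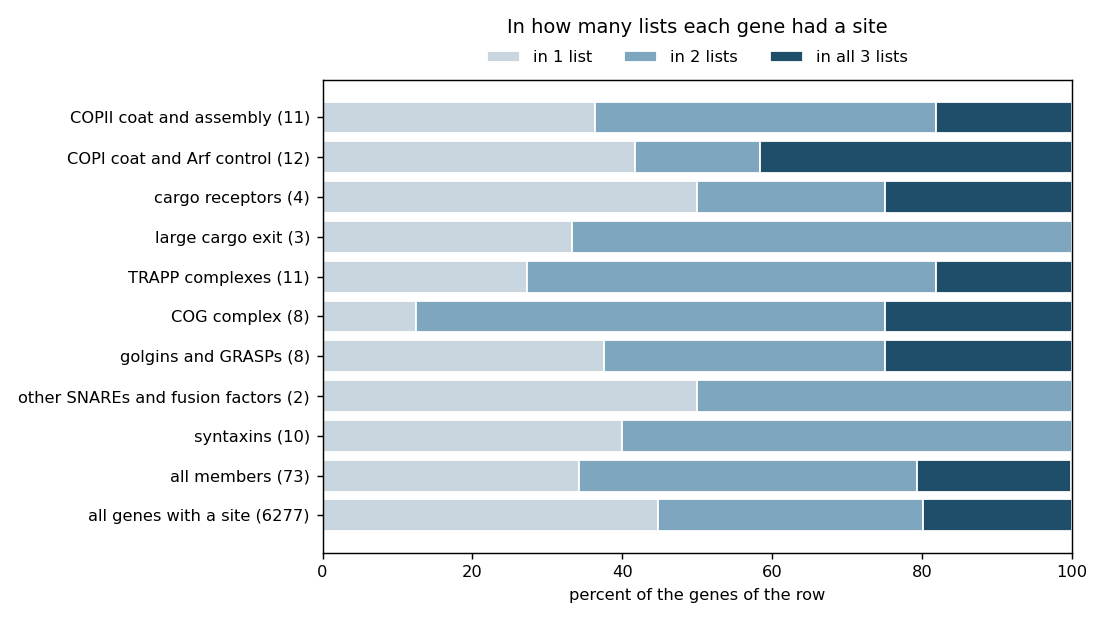
Each bar splits the genes of a row, their number in brackets, into those with a site in 1, 2 or all 3 lists, as a percent of the row. The COPI and Arf row has the widest dark part (5 of 12 genes), the syntaxin row has none, and all members (20.5%) lie near all genes with a site (19.9%). The 4 members of the smallest groups have no row of their own.

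Members carried a median of 3 sites over the lists, against 2 for all genes with a site, and genes with more sites reach more lists. Of the 16 members with 6 or more sites, 10 were in all lists (62.5%), against 75.9% of the 742 genes with that many sites. Of the 24 members with 3 to 5 sites, 5 were in all lists (20.8%), against 37.1% of 1846 genes. In both classes the share of members reaching all 3 lists was below that of all genes. Of the 12 members with exactly 2 sites, 10 had them in different lists (83.3%), against 71.1% of 1441 genes. At least 2 lists were reached by 22 of the 24 members with 3 to 5 sites (91.7%), against 92.8% of genes. All 16 members with 6 or more sites reached at least 2 lists, against 98% of genes. So at 3 or more sites the members stood close to all genes by this count. No test was made of these shares, and gene length was not taken into account.

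The 260 member sites did not fall evenly on the immunoprecipitations. List 1 held 55 of them, list 2 held 76 and list 3 held 129, or 21.2%, 29.2% and 49.6%, against 26.1%, 29.8% and 44.1% of all sites. Taken in the order of lists 1, 2 and 3, the median folds of member sites were 6.43, 6.11 and 8.25, against 7.21, 6.41 and 8.38 for all sites. Median lengths of member sites were 157, 151 and 146 bases, against 176, 161 and 152 bases for all sites. Member folds ran from 3.03 to 29.7 in list 1, from 2.95 to 14.6 in list 2 and from 4.47 to 17.6 in list 3. The FDR of member sites lay between 14.2% and 17.3% in list 1, 12.3% and 13.5% in list 2, and 9.32% and 11.8% in list 3. In list 3 the FDR was under 10% for 101 of the 129 member sites (78.3%), against 77.2% of all its sites. No site of the other lists, member or not, had an FDR under 10%. A lower FDR did not mark a stronger site in list 3, where a higher score means a smaller p of the caller. The highest member score there, 295 at Trappc11 (fold 17.6), had an FDR of 11.8%, while a Stx16 site of score 52.4 had 9.32%.

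**Figure D2:**
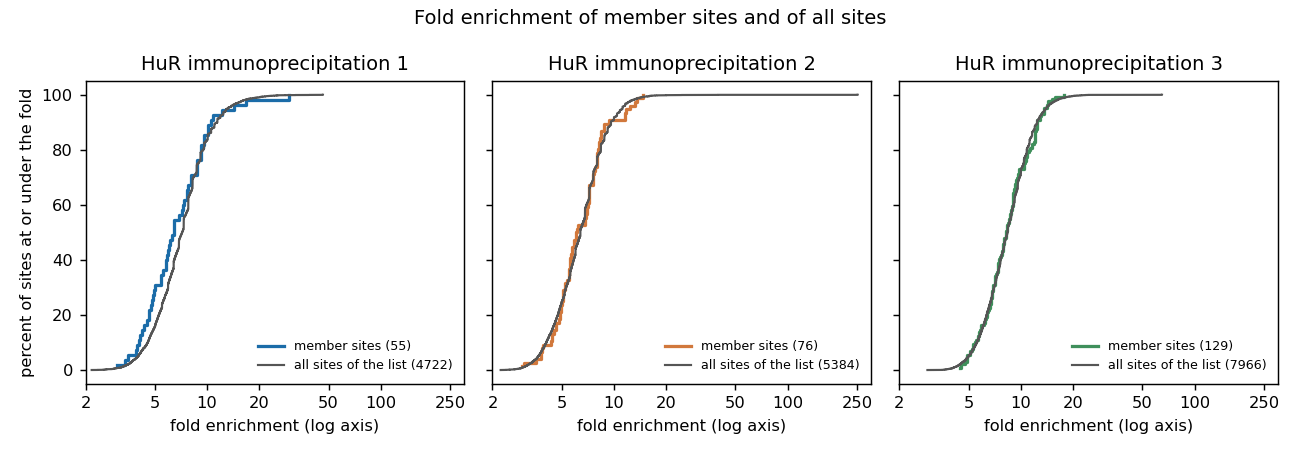
Cumulative percent of sites by fold enrichment (log axis), for member sites (coloured) and all sites of the same list (grey). In lists 2 and 3 the curves lie close together; in list 1 the member curve runs left of the grey one over the lower folds, with medians of 6.43 and 7.21.

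The COPII coat forms when the small GTPase Sar1 recruits the inner layer of Sec23 and Sec24, which picks cargo, and then the outer layer of Sec13 and Sec31. RefSeq names 14 genes of this group. A site was listed for 11, against 28.4% of all protein-coding genes, and Sar1b, Sec16a and Sec31b had none. Sites in all lists were found for 2, against 19.9% of all genes with a site. Sec23a, an inner coat gene, had 8 sites. List 1 gave folds of 7.63 and 5.78, list 2 gave 13.2, 8.41, 8.01 and 5.05, and list 3 gave 12.9 and 11.9. A single position held a site in more than 1 list, chromosome 12, 59048605 to 59048841 (mm39), with folds of 7.63 in list 1 and 12.9 in list 3. The strongest Sec23a site of list 2 lay elsewhere, so its best sites spanned 23.6 kb.

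Sec24a, which encodes a cargo-binding subunit, also had 8 sites, which the lists held as 3, 1 and 4. Its best folds were 7.81, 5.48 and 13.6, and lists 1 and 3 shared a site at chromosome 11, 51597955 to 51598130. There the fold was 7.35 in list 1 and 10.4 in list 3. Its relatives were listed more thinly. Sec24b and Sec24d had sites in lists 1 and 3, with best folds of 4.8 and 15.7 for Sec24b and 7.26 and 10.8 for Sec24d. A lone Sec24c site in list 2 had 7.64. The outer coat gene Sec13 had a common site in lists 2 and 3, of the same bounds, at chromosome 6, 113713333 to 113713448. Its fold was 2.95 in list 2, the lowest of any member site there, and 8.56 in list 3. Sec31a had 1 site, in list 3 (fold 8), and Sar1a 1 site, in list 2 (fold 4.88). Sec23ip, whose product binds Sec23, had 2 sites in list 1 and 4 in list 3, and a shared position at chromosome 7, 128380787 to 128380949 (folds 7.16 and 7.88).

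COPI is a coat of several subunits that is loaded onto Golgi membrane by Arf GTPases, and Arf is switched on by exchange factors and off by GTPase-activating proteins. RefSeq names 17 genes of this group, of which 12 had a site, against 28.4% of all protein-coding genes. Sites in all lists were found for 5, against 19.9% of all genes with a site. The group had a median of 4 sites per gene, against 2 for all genes with a site, and genes with more sites reach more lists. Copg2 encodes one of the alternative gamma subunits of the coat. Its folds by list were 16.7, 14.2 and 5.45 (list 1), 12.4 and 6.16 (list 2), and 11.6, 9.61 and 8.41 (list 3). These 8 sites lay along 121 kb of chromosome 6. Each list's best site fell within a stretch of 7.28 kb, from 30786494 to 30793773, without overlapping the others. Lists 2 and 3 shared the bounds of a site inside that stretch (30790646 to 30790721), with folds of 12.4 and 8.41. The Copg2 gene overlaps Mest, another protein-coding gene, in the RefSeq table, and no Mest site was listed.

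**Figure D3:**
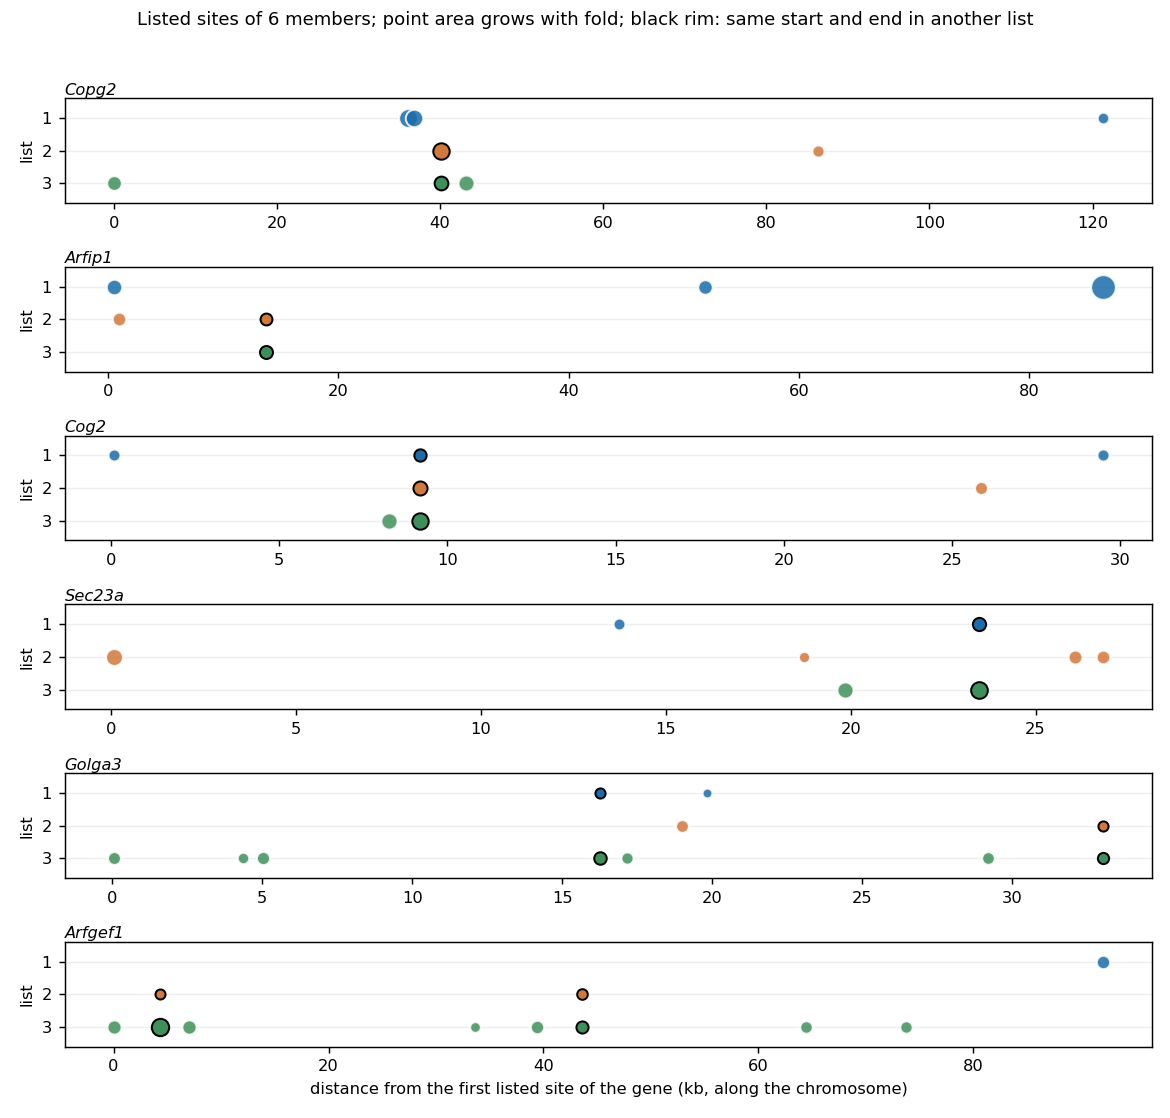
Sites of Copg2, Arfip1, Cog2, Sec23a, Golga3 and Arfgef1 by distance in kb from the first listed site of the gene, with 1 row for each list. Point area grows with fold, and a black rim marks a site with the same start and end in another list; Cog2 has the only position rimmed in all 3 rows.

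The other coat subunits had fewer or less widely listed sites. Cope had a single site in each list, with folds of 4.05, 3.58 and 6.1, and those of lists 1 and 2 had the same bounds (chromosome 8, 70765356 to 70765640). Copb1 had 4 sites, all in list 3, with folds from 6.51 to 8.64. Copb2 had 1 site in list 1 (fold 4.87) and 4 in list 3 (best fold 7.35). Copa had 2 sites, in list 2 alone, with folds of 5.26 and 4.65. Arcn1 and Copg1 had 1 site each in list 3, with folds of 5.67 and 4.54, and Copz1 and Copz2 had none. Having every site in a single list was uncommon among genes with 4 or more sites: Copb1 and Mia2 were the 2 of 32 such members (6.25%), against 3.08% of 1720 genes.

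Arfip1 encodes arfaptin, which binds Arf-family GTPases at Golgi membranes. List 1 gave it folds of 29.7, 10.8 and 9.29, list 2 gave 8.03 and 5.89, and list 3 gave a single 7.31. The site of 29.7, at chromosome 3, 84489721 to 84489932, was the highest fold of any member and 6th of the 4722 sites of list 1. Neither other list had a site there. Its FDR was 16.1%, against a median of 15.3% for member sites of list 1. It was also listed under a different transcript from the other Arfip1 sites. Overlapping sites were found at 2 places. Lists 1 and 2 had long sites of 1110 and 1650 bases that overlapped and together ran from 84403427 to 84405198, and lists 2 and 3 had the same site at 84417115 to 84417289 (folds 5.89 and 7.31).

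Regulators of Arf differed in how many sites they had. Arfgef1, an Arf exchange factor gene, had 1 site in list 1 (fold 7.72), 2 in list 2 (4.42 and 3.84) and 8 in list 3, where the best reached 14.1. With 11 sites it had, together with Golga3, the most of any member. Both sites of list 2 were at positions of list 3, and the best of list 3 (chromosome 1, 10214943 to 10215082) had a fold of 3.84 in list 2. Arfgef2, its close relative, had folds of 7.61 and 6.06 in list 2 and 15.2 and 7.85 in list 3, with no common position. Arfgap3, a gene for an Arf GTPase-activating protein, had 8 sites. Lists 1 and 3 shared 2 of their positions, and the stronger, at chromosome 15, 83214720 to 83214807, had folds of 12.2 and 9.03. Arfgap1 had 1 site, in list 1 (fold 8.79).

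**Figure D4:**
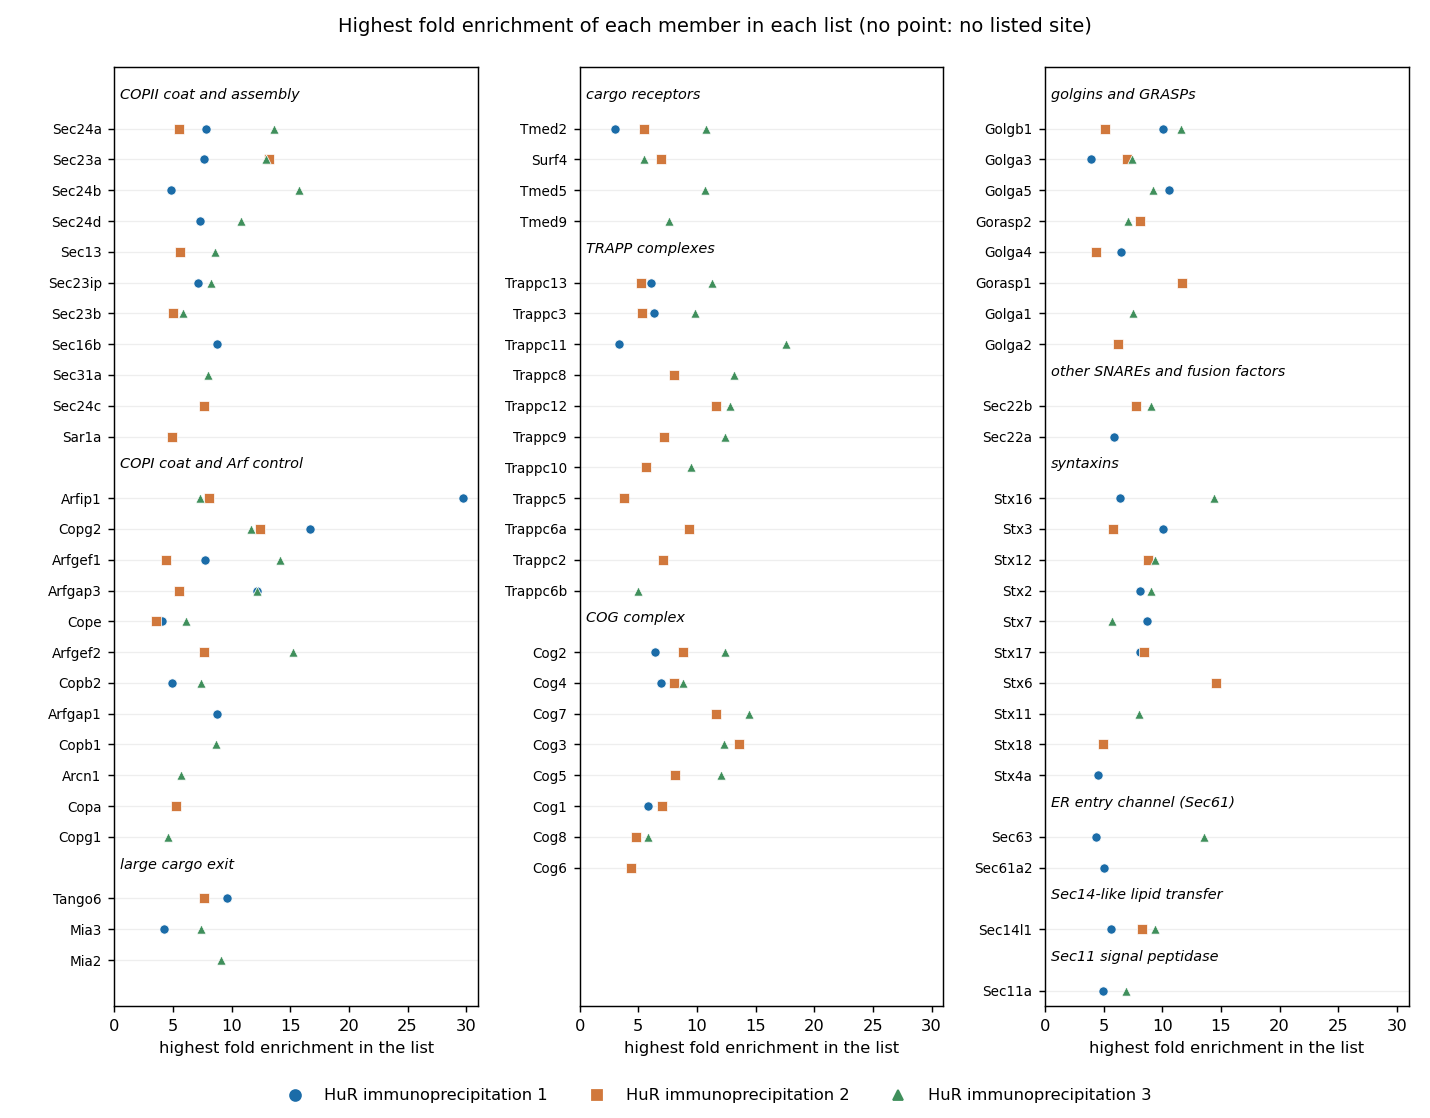
Highest fold enrichment of each of the 73 members in each list, by group; a missing point means that no site was listed. Arfip1 in list 1 (29.7) lies farthest right, and the Trappc5 points of lists 1 and 2 (3.89 and 3.81) coincide. The 15 members with 3 points are spread over the coats, Arf regulators, cargo receptors, tethers and golgins, with Sec14l1.

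Cargo receptors link soluble or bulky cargo to the coats. This group had sites in 4 of 12 genes named by the families, against 28.4% of all protein-coding genes. No site was listed for 8 of the 11 Tmed genes, which encode small membrane proteins cycling between ER and Golgi. Tmed2 was listed in all 3 immunoprecipitations, with a fold of 3.03 in list 1, the lowest of any member site there, 5.5 in list 2, and 10.7, 8.71 and 6.71 in list 3. Its sites of 5.5 and 8.71 had the same bounds (chromosome 5, 124678758 to 124679104). Tmed5 had 2 sites in list 3, with folds of 10.7 and 5.12, and the stronger covered 2399 bases. Surf4, whose product is known in mouse liver as an export receptor for lipoproteins, had overlapping sites within chromosome 2, 26823287 to 26823562. The fold was 6.92 in list 2 and 5.48 in list 3.

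Genes linked to the exit of large cargo were listed unevenly. Mia3 encodes a large ER exit site protein that helps load bulky cargo, collagen and lipoprotein particles among it. It had 1 site in list 1 (fold 4.25) and 1 in list 3 (fold 7.42), with no overlap. Mia2, its relative, had 5 sites in list 3, with folds between 4.88 and 9.05, and none in the others. Tango6, named for transport and Golgi organisation, had folds of 9.64, 9.64, 9.18 and 9.18 in list 1 and 7.61 and 7.21 in list 2, and no site in list 3. Its shared position was chromosome 8, 107451726 to 107451917. No site was listed for Sar1b, loss of which impairs chylomicron export in people, nor for Tmem41b, Vamp7 or Tm6sf2.

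TRAPP complexes act as tethers and activate the Rab GTPases of the early secretory route. Of 15 genes 11 had a site, against 28.4% of all protein-coding genes. The lists held 4, 9 and 8 of the 11, against 54.5%, 57.8% and 62.8% of all genes with a site. Trappc3, a core subunit gene, had folds of 6.33, 5.35 and 9.79, and its sites of lists 1 and 2 had the same bounds (chromosome 4, 126156118 to 126156330). Trappc13 had a fold of 6.11 in list 1, 5.26 and 3.78 in list 2, and 11.3, 9.78 and 7.38 in list 3. Lists 1 and 2 met at 1 of its positions and lists 2 and 3 at another, but no position held all 3. Trappc8 had 10 sites, 2 in list 2 and 8 in list 3, and Trappc11 had 1 in list 1 and 5 in list 3. The best Trappc11 fold, 17.6 (chromosome 8, 47954588 to 47954744), was the highest of any member in list 3, while its site in list 1 had 3.39. Trappc9 had 3 sites in list 2 and 4 in list 3, with 1 common position and best folds of 7.21 and 12.4. Trappc8 had 1 common position, with 8.01 in list 2 and 12.0 in list 3. Trappc5 had long sites in lists 1 and 2 that overlapped without having the same bounds, with 3.89 and 3.81.

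The COG complex, a tether for vesicles moving back through the Golgi, has 8 genes, and all are members. The lists held 3, 8 and 6 of them, against 54.5%, 57.8% and 62.8% of all genes with a site. Sites in at least 2 lists were found for 7 of the 8, against 55.2% of all genes with a site. The group had a median of 4.5 sites per gene, against 2 for all genes with a site, and genes with more sites reach more lists. With so few genes this is a description. Cog2 held the single member position called in every immunoprecipitation, at chromosome 8, 125256637 to 125256740. Its folds there were 6.43, 8.81 and 12.4, with scores of 54.9, 102 and 73.2, and the start and end were the same each time. Scores rise as the p of the caller falls, and the lowest listed score was 50. Cog4 had folds of 6.89 in list 1, 8.01 in list 2 and 8.81, 8.25 and 5.86 in list 3, with a position common to lists 2 and 3. Cog3 reached 13.6 in list 2 and 12.3 in list 3, and Cog7 reached 11.6 and 14.4. At the position they shared, the folds in lists 2 and 3 were 6.81 and 12.3 for Cog3 and 5.61 and 14.4 for Cog7. Cog1 had the same site in lists 1 and 2 (chromosome 11, 113544730 to 113544886), with 5.79 and 7.02. Cog8 had a long common site of 1265 bases in lists 2 and 3 (chromosome 8, 107774498 to 107775762), with 4.83 and 5.82. The lone Cog6 site, in list 2, had 4.4.

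Golgins are long coiled proteins that reach out from the Golgi surface, and GRASP proteins hold its cisternae together. Sites were listed for 8 of 10 genes, against 28.4% of all protein-coding genes. Golga3 had 11 sites, with folds of 3.95 and 3.53 in list 1, 6.96 and 3.92 in list 2, and 5.12 to 7.39 over 7 sites in list 3. Golgb1, the gene of the giant golgin, had 10.1 in list 1, 5.09 and 4.64 in list 2, and 11.6, 8.93 and 5.26 in list 3. Its common position (chromosome 16, 36728184 to 36728257) had folds of 4.64 in list 2 and 11.6 in list 3. Golga5 had 1 site in list 1 (fold 10.6) and 5 in list 3 (best fold 9.21), with none in common. Gorasp1 had 1 site, in list 2 (fold 11.7), and Gorasp2 had 2 in list 2 and 1 in list 3.

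Among SNARE genes, Sec22b, which acts between ER and Golgi, had a fold of 7.73 in list 2 and 9.05, 7.98 and 6.36 in list 3, with no common position. Sites were listed for 10 of 15 syntaxins, against 28.4% of all protein-coding genes. Each of the 10 was in 1 or 2 lists, while 19.9% of all genes with a site were in all 3. Stx5a, the syntaxin of the early Golgi, had none, and Stx18, which works at the ER, had 1 (list 2, fold 4.93). The highest syntaxin fold was 14.6 for Stx6 in list 2, and this was also the highest of any member in that list. Stx16 reached 14.4 in list 3 and 6.43 in list 1, and Stx3, a syntaxin of the apical surface of epithelia, reached 10.1 in list 1 and 5.77 in list 2. Common positions were found for Stx2, Stx12 and Stx16. Outside the SNAREs, Sec63, of the ER entry channel, had overlapping sites in lists 1 and 3 (chromosome 10, 42637492 to 42637884), with 4.33 and 13.5. Sec14l1 had 5.59 in list 1, 8.3 and 5.74 in list 2, and 9.38 in list 3, at 4 separate positions.

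Positions were compared across lists to ask how often the immunoprecipitations met at the same place. Merging overlapping sites gave 225 member regions, of which 34 (15.1%) held a site of at least 2 lists, against 16.1% of the 15379 regions of all genes. Lists 2 and 3 alone shared 17, lists 1 and 3 alone 9 and lists 1 and 2 alone 7. These regions lay in 29 members (39.7%), against 31.2% of all genes with a site. A region of all 3 lists was found in 1 member (1.37%), against 3.07% of all genes. The start and end were the same in every list for 30 of the 34 regions (88.2%), against 75.9% of shared regions of all genes. A site with the same start and end in at least 2 lists was found in 26 members (35.6%), against 24.2% of all genes. Members had a median of 3 sites, against 2 for all genes with a site, and the shares per gene take no account of this.

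**Figure D5:**
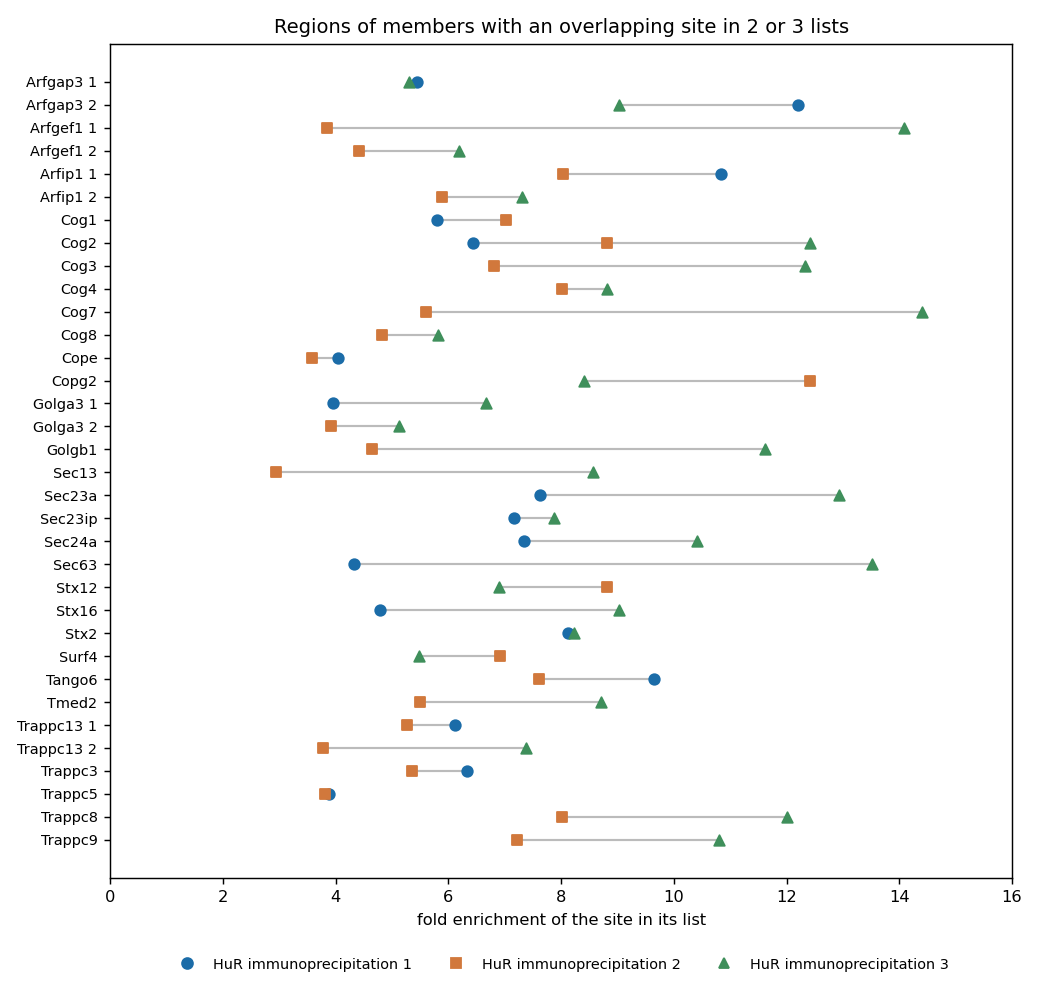
The 34 member regions with overlapping sites in 2 or 3 lists, with the fold enrichment of each list's site; numbers after a gene tell its regions apart. Folds of different lists were set by separate calls and are shown side by side, and Cog2 is the only row with 3 points.

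Members in all lists mostly met in pairs of lists. Of the 15 members in all lists, 13 had a region of exactly 2 lists, Cog2 had one of all 3 and Sec14l1 had none. Among all genes, 1248 were in all lists and 193 had a region of all 3. The best sites of at least 2 lists overlapped in 6 of the 15. The counts of paired regions and of overlapping best sites are not given for all genes here. Neither is shown to be particular to the members. The stretch covering the best sites of the 3 lists ran from 0.104 kb in Cog2 to 88 kb in Arfgef1, with a median of 22.9 kb.

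Several fold values recurred exactly. Lists 1, 2 and 3 had 16, 29 and 63 member sites whose fold was carried by 10 or more other sites of the list. These were 29.1%, 38.2% and 48.8% of member sites, against 39%, 42.8% and 47.9% of all sites. The fold of 12.4 at Copg2 in list 2 was shared by 16 other sites, that of 12.4 at the Cog2 position in list 3 by 72, and that of 14.4 at Cog7 and Stx16 in list 3 by 26 others each. How many reads lie behind such values is unknown, so order by fold need not follow the amount of RNA.

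Requiring a score of at least 70 in place of 50 left 9 of 65 members in all lists (13.8%), against 11.5% of 5206 genes. The 9 were Arfgap3, Arfgef1, Arfip1, Cope, Copg2, Sec14l1, Sec23a, Tmed2 and Trappc3. Cog2, Golga3, Golgb1 and Sec24a kept sites in 2 lists, and Cog4 and Trappc13 in 1. With a fold of at least 6.41, 5 of 58 members were in all lists (8.62%), against 11.5% of 5148 genes. With each list held to its 4722 best scores there were 11 of 71 (15.5%), against 15.3%. Taking lists in pairs, both lists were reached by 30 of 68 members for lists 2 and 3 (44.1%, against 42.1% of genes), by 27 of 63 for lists 1 and 3 (42.9%, against 34.8%) and by 21 of 63 for lists 1 and 2 (33.3%, against 34.7%). By the RefSeq gene models, 31 members overlap another gene of any kind, Arfip1 among them with a lncRNA gene and a pseudogene. For 12 of the 31 it is a protein-coding gene, as for Cog1, Cog4, Cog5, Copa, Copg2, Gorasp1, Surf4 and Trappc2. Whether reads were counted by strand is not given in the sources used here, so the source of reads in such stretches is uncertain. No member region was also listed under another gene.

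The same route has genes with other names, and 55 of them had been listed by role. A site was found for 32 (58.2%), against 28.4% of all protein-coding genes of the table, with no account taken of expression. Of the 32, 8 were in all lists (25%), against 19.9% of all genes with a site: Tfg, Ergic3, Uso1, Tmf1, Cux1, Vti1b, Scfd1 and Nbas. Tfg, whose product gathers COPII at ER exit sites, had best folds of 7.39, 12.0 and 15.2, and Uso1, the vesicle tether gene, had 5.73, 6.93 and 11.95. Scfd1, which encodes a partner of ER to Golgi SNAREs, had 6.81, 10.0 and 10.3. All 8 other golgin-related genes had a site, while Gbf1, the Arf exchange factor of the early Golgi, and Preb, which activates Sar1, had none. Of 9 Rab genes of this route 6 had a site and 0 had one in all lists, with best folds of 25.25 in list 1 and 11.6 in list 3 for Rab43.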

How the data were processed

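The submitters' processing notes name the mm39 build and the tools cutadapt 1.9.3, HISAT2 2.0.4, STAR and FastQC, with no role or order. Site names carry the prefix of the MACS caller; no source used here gives its version, settings or control. Sites were called by the authors in each HuR immunoprecipitation. Per the file headers, fold enrichment is a ratio, and the score is the p of the caller as minus log10, times 10. The deposited FDR is read as percent from its range. Site length is in bases. Depth is unknown, and IgG and input values were not analysed here.

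Members were found by a name pattern in the gene column. Members and lists were chosen with earlier results of these data known. Starts are printed counted from 1. Sites of different lists were joined when they overlapped by at least 1 base, a step tested on simulated data. No test was run, since lists hold calls without replicate values. A stricter score, a minimum fold, equal list lengths, stricter overlap, a narrower gene set and leaving out each immunoprecipitation were tried. Named members were those in all lists or with a shared region, those with the 5 highest folds of a list or the most sites, and examples of each group; members in 1 list were also named, after their values were seen, to cover each group. All 73 members matched a RefSeq table of GRCm38, used for names and neighbours only. Of the listed pathway genes 2 were not in it and were left out. The analysis used Python 3.11.15 and pandas 2.3.3.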

Additional observations from a re-analysis of the deposited data

How the results depend on the processing

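No paired analysis was possible because no separate IgG value is listed for a site, and the control behind the fold is not named. A score of at least 70 left 9 members in all lists, 0 regions and 0 members with a region in all lists, and 35 and 45 member sites in lists 1 and 2, which follows from fewer sites. A fold of at least 6.41 left 5 members in all lists (8.62%, against 11.5% of genes), and 28 and 36 member sites in lists 1 and 2, with median folds of 8.76 and 8.01. With lists held to 4722 sites by score, list 3 kept 80 member sites and 0 regions in 0 members were common to all lists. The Cog2 position was the lost one in both cases, through its score of 54.9 in list 1 and of 73.2 in list 3. Leaving out each immunoprecipitation gave 21 to 30 members in all remaining lists, 8 to 18 shared regions and 8 to 17 members with one, since agreement of a pair is asked in place of 3. Of the values compared, 39 were classed as unchanged, among them the 21 members found without list 3. Some of the 39 could not change, such as the site counts of lists kept when another was left out. Overlap of 50% of the shorter site, or the same start and end, left the 1 region. Keeping only the COPII, COPI, cargo receptor, TRAPP, COG and golgin groups left 14 of 54 members in all lists. That share is higher than the 20.5% of all 73 members and the 19.9% of all genes with a site. The difference was not tested. Left out were the syntaxins, Sec61, Sec14-like and Sec11 genes, and also Mia2, Mia3, Tango6, Sec22a and Sec22b. With depth unknown, a site missing from a list is not shown to be absent from that library.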
